A study of Mus musculus with 2 samples.

Results

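Mitochondrial ribosomal proteins are encoded in the nucleus, made in the cytosol and imported into mitochondria, where they assemble with mitochondrially encoded ribosomal RNA into a large and a small subunit. This ribosome translates the mitochondrial mRNAs, whose products are core subunits of the respiratory chain and ATP synthase. Part of its proteins descend from bacterial ribosomal proteins, and the rest have no bacterial counterpart. The genes were taken as every row of the deposited mouse gene table whose symbol is Mrpl or Mrps followed by a number and at most 1 letter. This rule gave 78 genes of the 24532 in the table, 49 named Mrpl for the large subunit and 29 named Mrps for the small subunit.

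Poly(A) RNA was compared between E14, a mouse embryonic stem cell line grown on serum and LIF, and Sox2 T258A, an E14 derivative in which 1 Sox2 allele codes for alanine in place of threonine at residue 258. Sox2 T258A was made by CRISPR/Cas9 with a single-stranded DNA donor. Edited clones were expanded from single cells and kept with the inhibitors PD0325901 and CHIR99021, which were withdrawn before use. Whether the library came from 1 clone is not stated. The other allele is wild type, and the 2 lines share the E14 background. Each genotype had 1 library, so there was no replicate check and no test was possible. The genotype, the choice of clone and the culture history cannot be told apart.

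Values are TPM, a level per transcript length scaled to the library sum, and the log2 ratio of TPM in Sox2 T258A over E14. The 95% interval printed beside a ratio is an exact binomial (Clopper-Pearson) interval on the reads and covers counting error only. The libraries held 60263536 reads in E14 and 44609228 in Sox2 T258A. At a TPM of at least 10 in 1 or both libraries, 9094 genes were compared, and their median log2 ratio was 0.08. Sox2 itself had a TPM of 373 in E14 and 274 in Sox2 T258A (-0.44), and a gene table cannot show the edited base itself. All 10 pluripotent cell markers passed the filter, 7 of them were lower in Sox2 T258A and their median log2 ratio was -0.39, from Nanog (527 and 251, -1.07) to Utf1 (429 and 507, 0.24). Of 8 fibroblast markers, Dcn, Lum and Postn had no reads in either library and only Thy1 passed the filter (40.1 and 11.4). Of 8 primitive endoderm markers 2 passed, Gata4 (14.97 and 3.80, -1.98) and Col4a1 (-0.42), and all 8 had a lower TPM in Sox2 T258A. Of 8 trophoblast markers 2 passed, Cdx2 (0.474 and 12.2, 4.69) and Tfap2c (50.9 and 16.1, -1.67), and of 6 neural markers 3 passed, Nes (6.67 and 36.2, 2.44), Sox1 (3.80 and 10.7, 1.49) and Tubb3 (77.3 and 65.8, -0.23). The part of any other cell type in the results was not tested, and in bulk RNA fewer cells of a type and less RNA per cell cannot be told apart.

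Promoter sequence was taken from RefSeq (GRCm38.p6) for 69 of the 78 genes, as the 250 bases before each annotated start, which gave 75 windows. Mrpl13, Mrpl15, Mrpl19, Mrpl38, Mrpl4, Mrpl54, Mrps28, Mrps34 and Mrps35 were not matched. A pair of short motifs known from promoters of nuclear genes for mitochondrial proteins were searched on both strands: CCGGAAG, a core of ETS factors such as GABPA, and GCATGCG, a core of NRF1. The last 100 bases before the start are shown for 6 genes, with these cores in capitals and the start just after the last base. Mrps24 and Mrps6 are shown as the genes with the lowest and the highest log2 ratio, and neither holds a core in the stretch. Mrpl22, Mrpl17, Mrps27 and Mrpl58 are shown as genes among the 8 lowest or 8 highest ratios that hold one.
Mrps24, chr11:5707702-5707801, minus strand: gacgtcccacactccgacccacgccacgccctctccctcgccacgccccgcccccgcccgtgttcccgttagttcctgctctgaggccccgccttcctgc
Mrpl22, chr11:58171564-58171663, plus strand: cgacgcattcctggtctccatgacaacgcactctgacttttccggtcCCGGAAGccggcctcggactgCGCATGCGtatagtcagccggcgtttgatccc
Mrpl17, chr7:105811088-105811187, minus strand: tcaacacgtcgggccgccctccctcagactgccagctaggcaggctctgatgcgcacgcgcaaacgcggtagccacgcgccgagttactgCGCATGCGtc
Mrps27, chr13:99344686-99344785, plus strand: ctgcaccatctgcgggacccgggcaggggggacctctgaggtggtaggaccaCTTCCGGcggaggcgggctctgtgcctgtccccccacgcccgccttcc
Mrpl58, chr11:115403652-115403751, plus strand: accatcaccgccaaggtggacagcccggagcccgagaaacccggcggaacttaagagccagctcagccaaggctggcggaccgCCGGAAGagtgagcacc
Mrps6, chr16:92058236-92058335, plus strand: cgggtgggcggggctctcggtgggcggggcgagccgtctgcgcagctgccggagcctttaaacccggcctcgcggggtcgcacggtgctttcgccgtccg

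The ETS core was in the windows of 18 of the 69 genes (26.1%), against 18.3% of the 7297 genes past the filter with a promoter entry and 7.83% of 27025 genes with any entry. It stood in 12 of 43 Mrpl genes and 6 of 26 Mrps genes. The NRF1 core was in 8 genes (11.6%), against 7.11% of genes past the filter, and 7 of the 8 were Mrpl genes. Where the core is read on both strands of CGCATGCG, as in Mrpl22, the 2 readings overlap. The remaining motifs searched were the YY1 core AAGATGG (8.70% against 5.44% of genes past the filter), ATTGG, the reverse complement of the CCAAT box (36.2% against 42.2%), the TATA box TATAAA (7.25% against 6.87%) and the E-box CACGTG (7.25% against 10.8%). The 18 genes with an ETS core had a median log2 ratio of -0.06, and 11 of them were lower in Sox2 T258A. The 51 without it had a median of -0.12, and 37 were lower. Genes with and without the core overlapped across nearly the whole range, from -0.55 to 0.43 with it and from -1.08 to 0.49 without it. A match is a description of letters and no test of binding.

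All 78 genes passed the TPM filter, with between 693 and 13942 reads in a library. Together they held 0.825% of the summed TPM in E14 and 0.754% in Sox2 T258A. The summed TPM of the Mrpl genes was 5455 in E14 and 4996 in Sox2 T258A, a log2 ratio of -0.13 (-0.14 to -0.12). The summed TPM of the Mrps genes was 2738 and 2500, also a log2 ratio of -0.13 (-0.15 to -0.12). Both intervals came from pooled reads, which do not weight genes by length as a TPM sum does, and were not exact for the sums. The 2 subunits were thus lower by nearly the same factor, and the Mrpl sum was 1.992 times the Mrps sum in E14 and 1.998 times in Sox2 T258A.

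Levels differed far more between genes than between libraries. In the large subunit the highest TPM was that of Mrpl42, a protein with no bacterial counterpart, at 353 in E14 and 325 in Sox2 T258A. Mrpl13 (314 and 207) and Mrpl52 (238 and 214) came next. Mrpl12, the protein of the stalk that is present in several copies per ribosome, had a TPM of 210 and 222, and Mrpl24 had 230 and 174. The low end of the large subunit was Mrpl41 (19.0 and 16.3), Mrpl19 (16.3 and 21.2), Mrpl17 (23.8 and 17.5), Mrpl1 (28.8 and 27.7) and Mrpl57 (33.3 and 24.8). Neighbours in this order, such as Mrpl41 and Mrpl19, changed places between the libraries. In the small subunit Mrps5 (186 and 163), Mrps16 (193 and 151), Mrps18b (133 and 162), Mrps21 (154 and 114) and Mrps9 (120 and 117) were highest. Mrps25 (17.1 and 15.2) stood below the rest, followed by Mrps11 (41.6 and 41.1), Mrps14 (55.0 and 53.7), Mrps26 (54.6 and 57.6) and Mrps34 (62.0 and 57.8). The order of the 78 genes by TPM was kept largely intact, with a rank correlation of 0.927 between the libraries over 78 genes. These points share the transcript lengths, and the correlation is a description.

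**Figure D1:**
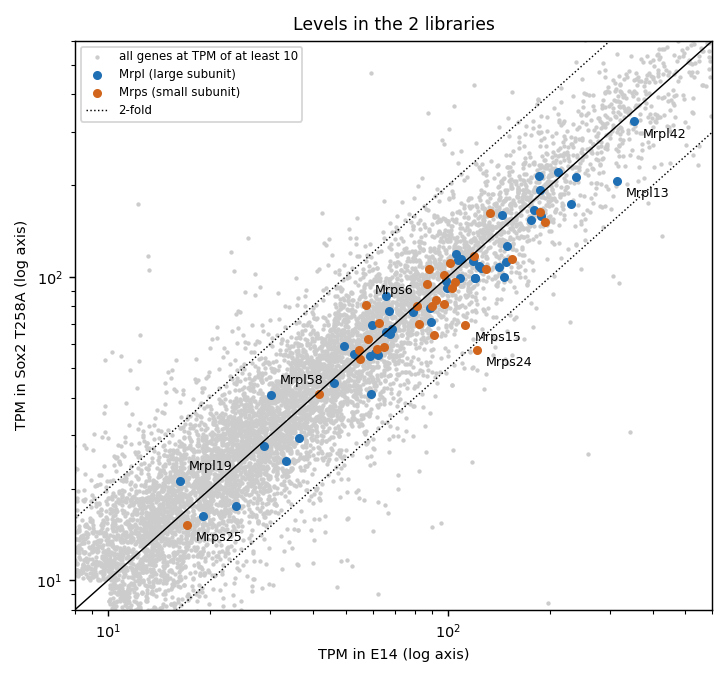
TPM in E14 (horizontal, log axis) against TPM in Sox2 T258A (vertical, log axis), with Mrpl genes in blue, Mrps genes in orange and all genes at a TPM of at least 10 in grey; the solid line marks equal levels and the dotted lines 2-fold. All members but Mrps24 lie between the 2-fold lines, and Mrpl42 lies at the top with a TPM of 353 and 325.

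Of the 78 genes, 55 had a lower TPM in Sox2 T258A and 23 a higher one, while 42.7% of all 9094 genes were lower and 57.3% higher. Among the Mrpl genes 35 of 49 were lower, and among the Mrps genes 20 of 29. Past 2-fold, 1 gene was lower and 0 were higher, where 4.07% and 4.17% of all genes were. Past 1.5-fold, 3 genes were lower and 0 were higher, where 10.5% and 14.2% of all genes were. The counting interval lay wholly below 0 for 41 of the 78 genes (35.2% of all genes) and wholly above 0 for 19 (50.2% of all genes). The remaining 18 had an interval that included 0.

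The median log2 ratio was -0.11 for the Mrpl genes and -0.12 for the Mrps genes, and the medians differed by 0.01. The median over all 78 was -0.12, with a counting interval of -0.20 to -0.03 for its middle genes. Ratios within the group were close to each other. Their interquartile range was 0.32, against 0.62 over all genes and 0.56 over the 7675 genes with at least as many reads as the least read member. A narrow spread was not particular to them. Their quartiles were -0.25 and 0.07, those of cytosolic ribosomal protein genes -0.25 and -0.03, and those of oxidative phosphorylation subunits -0.39 and -0.08. The 2 libraries differed by less than 1.2-fold for 54 of the 78 genes, 69.2%, against 42% of all genes and 45.3% of the well-read ones. Grouped by origin, the 47 genes with a bacterial homologue had a median of -0.11 and the 28 specific to mitochondria one of -0.12.

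**Figure D2:**
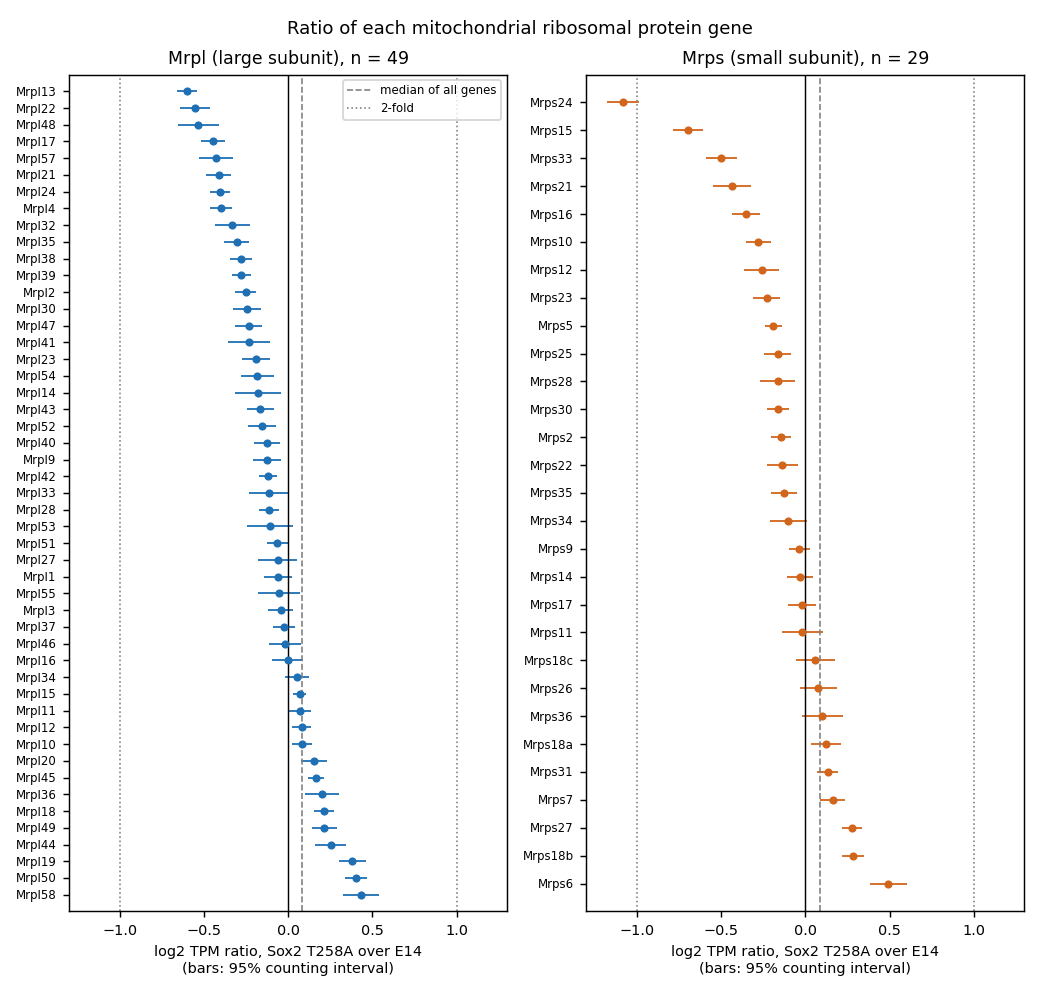
Log2 ratio of TPM, Sox2 T258A over E14, of each of the 49 Mrpl genes (left) and 29 Mrps genes (right), sorted, with 95% counting intervals as bars. Dotted lines mark 2-fold, the dashed line the median of all genes (0.08), and Mrps24 at -1.08 is the single gene past 2-fold.

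Mrps24, the counterpart of a bacterial protein at the mRNA entry of the small subunit, had the lowest TPM ratio. It is on chromosome 11 (GRCm38, 5703982 to 5707701) and had 3852 reads and a TPM of 121 in E14, against 1220 reads and a TPM of 57.4 in Sox2 T258A. It was therefore 2.12-fold lower (log2 ratio -1.08), with an interval of -1.18 to -0.99 that reached inside 2-fold. With the trend of the ratio on transcript length removed it was at -0.77, under 2-fold. Mrps24 shares 226 exonic bases on the same strand with Urgcp, which had 514 and 381 reads (0.15, -0.05 to 0.34). How the counting divided reads between overlapping genes is not stated, so values of Mrps24 are uncertain to that extent.

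Mrps15, which also has a bacterial homologue that binds the ribosomal RNA early in assembly, followed with a TPM of 113 in E14 and 69.5 in Sox2 T258A (-0.70, -0.79 to -0.60). Mrpl13, a large subunit protein with a bacterial homologue, had 314 and 207 (-0.60, -0.66 to -0.54). It is the only gene of the group on chromosome 15, where the median of all 396 genes was -0.14. Those 2 genes were past 1.5-fold but not past 2-fold.

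The next 5 genes completed the low end, all within 1.5-fold. Mrpl22, whose bacterial homologue lines the exit tunnel for the new protein, had a TPM of 146 in E14 and 99.9 in Sox2 T258A (-0.55). Mrpl48, specific to mitochondria, had 59.2 and 41.0 (-0.53). Mrps33, also specific to mitochondria, had 90.8 and 64.2 (-0.50). All 3 intervals lay below -0.40. Mrpl17 and Mrps21, which have bacterial homologues, had log2 ratios of -0.44 (TPM 23.8 and 17.5) and -0.43 (TPM 154 and 114).

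At the high end Mrps6, a small subunit protein with a bacterial homologue, had a TPM of 57.5 in E14 and 80.9 in Sox2 T258A (0.49, 0.38 to 0.60). It shares 159 exonic bases on the same strand with Slc5a3 (0.33). Mrpl50, specific to mitochondria, had 65.6 and 86.7 (0.40), and Mrpl19, with a bacterial homologue, had 16.3 and 21.2 (0.38). Mrps18b had 133 and 162 (0.28), and Mrps27, a pentatricopeptide repeat protein, had 87.7 and 106 (0.28). Mrpl44, which has a fold related to ribonuclease III, had 49.6 and 59.1 (0.25), and Mrpl49 had 59.96 and 69.6 (0.22). None of these genes was past 1.5-fold by TPM, while Mrps6 (0.80) was with the length trend removed, and Mrps6 (0.81) and Mrps18b (0.60) were with GC content and length trends removed.

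Mrpl58, a peptidyl-tRNA hydrolase that became part of the large subunit, gave opposite signs on the 2 scales of the same table. Its TPM was 30.1 in E14 and 40.7 in Sox2 T258A (0.43, 0.33 to 0.54), while its reads went from 1835 to 1190, a log2 ratio of -0.19 relative to the library totals and -0.09 with TMM scaling. Reads, FPKM and library total together imply a length of 1964 bases in E14 and 1407 bases in Sox2 T258A, so a different transcript length entered its TPM in each library. Mrpl1 (3470 and 3247 bases), Mrpl15 (4128 and 3958) and Mrpl55 (952 and 939) were the remaining genes whose reads per FPKM departed from the ratio common to the group by more than 1%. Their log2 ratios of -0.06, 0.07 and -0.06 lay near 0, and the part that transcript isoforms had in them was not tested.

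The gene names do not fully match the subunits. Mrps30 and Mrps18a are named for the small subunit but are found in the large subunit in structures of the mammalian mitochondrial ribosome. Mrps30 had a TPM of 103 in E14 and 92.0 in Sox2 T258A (-0.16), and Mrps18a had 86.7 and 94.5 (0.12). Mrps36, now known as a component of the 2-oxoglutarate dehydrogenase complex, had 58.3 and 62.5 (0.10, -0.02 to 0.22). The 3 paralogues of the bacterial protein S18 did not share 1 value: Mrps18b was at 0.28, Mrps18a at 0.12 and Mrps18c at 0.06 (-0.05 to 0.17), all within 1.5-fold. With genes placed by structure, the median was -0.11 for the 51 large subunit genes and -0.13 for the 26 small subunit genes.

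Another 6 genes with other symbols are, or once were, listed as mitochondrial ribosomal proteins. All passed the filter, 2 of them (Dap3 and Lactb) were lower in Sox2 T258A, and the median was 0.10 with Lactb included. Ptcd3, a pentatricopeptide repeat protein of the small subunit, had a TPM of 89.5 in E14 and 137 in Sox2 T258A (0.61). Dap3, a GTP-binding small subunit protein, had 60.8 and 44.8 (-0.44), and Lactb, which was once listed among the large subunit proteins, had 23.0 and 13.9 (-0.72). None of them was past 2-fold.

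Factors that act on this ribosome had medians nearer to 0 by TPM ratio, but their transcripts were longer. Median implied lengths were 1747 bases for assembly factors, 1984 for translation factors and 3039 for mitochondrial aminoacyl-tRNA synthetases, against 1063 for the 78 genes. Medians with the length trend removed are given below. Of 22 assembly factors past the filter, 9 were lower, the median was 0.04 and 0 were past 2-fold. Malsu1, an assembly factor of the large subunit, was lowest with a TPM of 94.7 in E14 and 48.5 in Sox2 T258A (-0.97, -1.08 to -0.85), and Ddx28, an RNA helicase of large subunit assembly, was highest at 0.71. Of 14 translation factors 7 were lower and the median was 0.04, from Mtfmt, which formylates the initiator tRNA (-0.40), to Lrpprc, which stabilises mitochondrial mRNAs (0.55). Of 14 mitochondrial aminoacyl-tRNA synthetases 7 were lower (median -0.08), with Lars2 lowest (238 and 127, -0.90) and Iars2 highest (0.49). Genes for mitochondrial DNA and RNA synthesis and processing had a median of 0.18, with 6 of 17 lower, from Ssbp1 (-0.31) to Twnk, the mitochondrial DNA helicase (0.66).

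Among 9 transcription factors known for nuclear genes of mitochondrial proteins, 4 were lower and 2 were more than 2-fold higher. Myc had a TPM of 27.1 in E14 and 102 in Sox2 T258A (1.91), and Mycn had 45.5 and 118 (1.38). Gabpb2, a partner of Gabpa, was lowest at -0.44. Gabpa, whose motif family was searched above, had 86.0 and 81.1 (-0.09), and Nrf1 had 35.5 and 41.7 (0.23).

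Cytosolic ribosomal protein genes and subunits of oxidative phosphorylation lay on the same side as the Mrpl and Mrps genes. Of 80 cytosolic ribosomal protein genes 63 were lower, with a median of -0.16. Rpl39l (-1.34), Rpl10l (-1.21) and Rps27 (-1.004) were more than 2-fold lower, and the highest was at 0.27. Rps27 had only 340 reads in E14 and 110 in Sox2 T258A, and its interval of -1.33 to -0.69 reached inside 2-fold. Of 77 oxidative phosphorylation subunits 67 were lower, with a median of -0.24. Cox7a1 was at -1.68 and Cox6a2 had 315 reads in E14 and 0 in Sox2 T258A, and these 2 were the subunits past 2-fold.

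**Figure D3:**
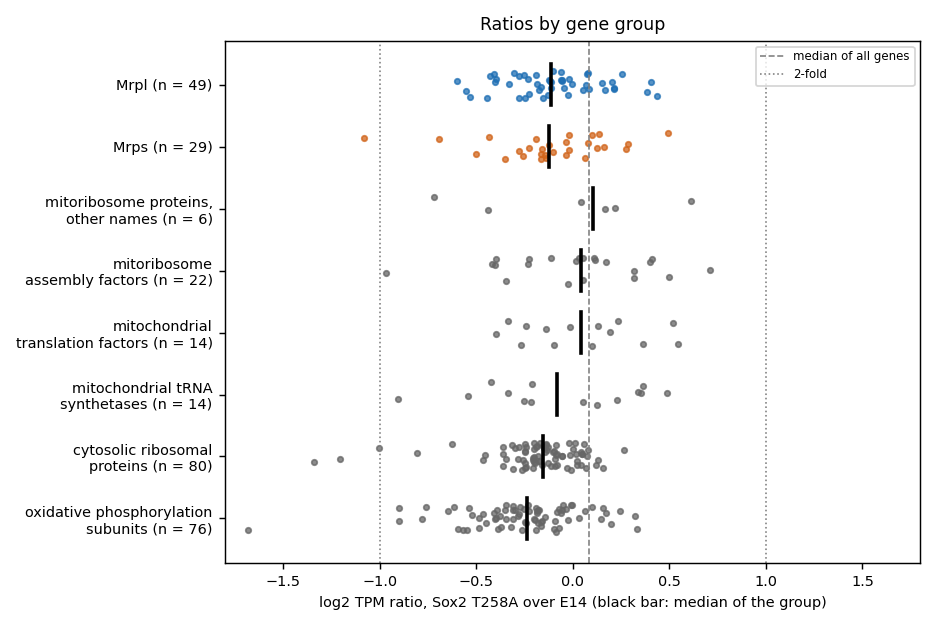
Log2 ratio of TPM, Sox2 T258A over E14 (horizontal), for genes past the filter in 8 groups (rows), 1 point per gene with vertical jitter, the black bar marking the group's median. Mrpl and Mrps genes have medians of -0.11 and -0.12, between assembly factors (0.04) and oxidative phosphorylation subunits (-0.24); Cox6a2, with 0 reads in Sox2 T258A, is not drawn.

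These groups are made of short transcripts, and transcript length moved with the ratio in the whole table. Over 9032 genes the rank correlation of log2 ratio with the length implied by the table was 0.39, and with GC content it was -0.24, as a description over genes of the same 2 libraries. The median implied length was 1063 bases for the 78 genes, 741 for cytosolic ribosomal proteins and 703 for oxidative phosphorylation subunits, against 2714 for all genes. Of the 78 genes, 53 had at most 1502 bases, the shortest of 5 equal bins of all genes by length. There the median was -0.14 for the members and -0.16 for all 1819 genes, and 41 of the 53 members were lower, against 65.3% of all genes of that bin. In the next bin, up to 2284 bases, the 15 members and all genes had medians that both round to -0.02. In these 2 bins the members' medians lay close to those of all genes of their length.

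With the length trend removed, the median of the 78 genes was 0.09, where that of all genes was 0.08, and 25 of the 78 were below 0 (32.1%, against 41.8% of all genes). The sign changed for 32 of the 78. The correction keeps the median of all genes, so a gene typical of its length stands near 0.08 and not at 0. Cytosolic ribosomal proteins then had a median of 0.08, and oxidative phosphorylation subunits remained lower at -0.03. Assembly factors then had a median of 0.13 and translation factors 0.12, near the 0.09 of the 78 genes. Mitochondrial aminoacyl-tRNA synthetases were at -0.04, and genes for mitochondrial DNA and RNA synthesis and processing at 0.21. The correction for both GC content and length took its lengths from GENCODE in place of implied lengths. For some members these were far apart, as for Mrps35 (4162 bases in GENCODE, 1084 implied) and Mrpl41 (776 and 2461). Mrps35 was at -0.23 with both trends removed and at 0.10 with the length trend alone removed. Values with both trends removed, and subunit differences in them, carry that mismatch. With both trends removed the median of the 78 genes was 0.07, 0.11 for Mrpl and 0.06 for Mrps. By TPM the median of the whole group thus lay below that of all genes. After either correction it lay near that of all genes, which was 0.08 with the length trend and 0.09 with both trends removed. By symbol, the difference between the subunits' medians was 0.05 or less in size either way. Placed by structure, the medians with both trends removed were 0.11 for large and 0.03 for small subunit genes. Whether the length trend arose in library preparation or in the cells was not tested.

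The order of single genes also shifted with length. The 10 members in the 3 longest bins, all with implied lengths of more than 2284 bases, had medians of -0.08, -0.06 and -0.16, below the medians of all genes there (0.06, 0.18 and 0.39). Mrpl17, with an implied length of 6817 bases, went from -0.44 to -0.75 with the length trend removed and came next to Mrps24 (-0.77) at the low end. With GC content and length trends both removed, Mrpl17 (-0.99) was lower than Mrps24 (-0.70). Mrps25, at 6160 bases, went from -0.16 to -0.47. Mrps6, at 792 bases, went from 0.49 to 0.80 and remained the highest.

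**Figure D4:**
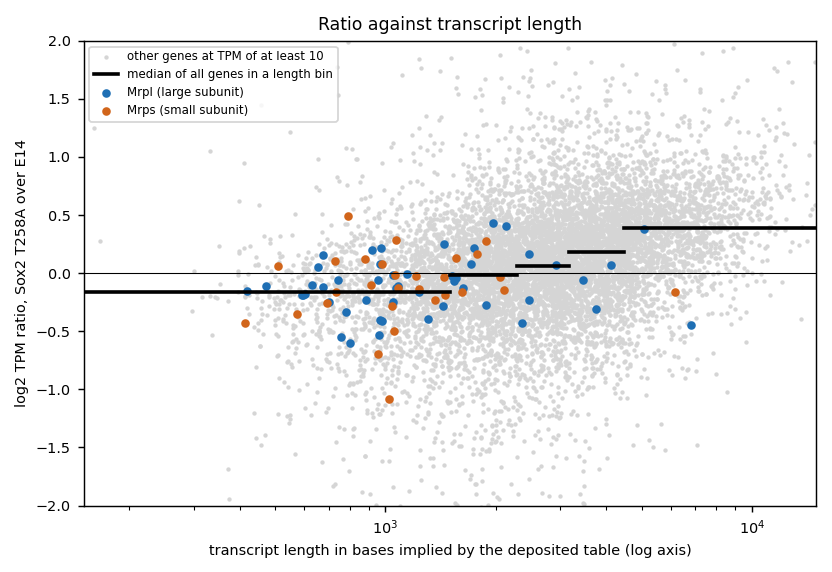
Log2 ratio of TPM, Sox2 T258A over E14 (vertical), against the transcript length in bases implied by the deposited table (horizontal, log axis), with Mrpl genes in blue, Mrps genes in orange, other genes in grey and black bars at the median of all genes in each of 5 length bins. Most members lie in the shortest bin, where the bar is at -0.16, and the bars climb to 0.39 in the longest bin.

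Of the 78 genes, 23 (29.5%) lie head to head with another protein-coding gene, with starts at most 1000 bases apart or overlapping by at most 200, against 13.8% of 8842 protein-coding genes past the filter. Of the 17 such neighbours past the filter, 8 had the sign of the member's log2 ratio and 7 were lower in Sox2 T258A. The pairs took both forms. Mrps12 and Sars2, the mitochondrial seryl-tRNA synthetase, have starts 172 bases apart and were at -0.26 and -0.33. Mrpl57 and Ska3, a kinetochore protein, have starts 49 bases apart and were at -0.43 and 0.54, and Mrps18b (0.28) lies 45 bases from Ppp1r10, a regulator of a protein phosphatase (0.94). The pairs named here were chosen after their values were seen.

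Some of the values may include reads of other loci. In all, 10 genes (Mrpl21, Mrpl22, Mrpl23, Mrpl27, Mrpl42, Mrps10, Mrps18b, Mrps18c, Mrps21 and Mrps36) have a processed pseudogene at 90% identity or more over at least 50% of their length, and none of these copies has a row in the table. Beside Mrps24 and Mrps6, Mrps34 shares 763 exonic bases on the same strand with Nme3 (0.25) and Mrpl51 shares 87 with Mir3098. In all, 21 of the 78 genes share exonic bases with a gene on the opposite strand, and the strand setting of the counting is not stated.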

How the data were processed

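Poly(A) RNA-seq on an Illumina NovaSeq gave 1 library per genotype. The deposited table, on mm10 by its name, holds for each gene the raw read counts, FPKM (reads per transcript length and library total) and TPM, as computed by the authors. Their processing notes name bcl2fastq 2.20.0, Trimmomatic, HISAT2 2.1.0 and StringTie 2.1.3b. Strand and multiply mapped reads are not given in the sources used here. Genes at TPM of at least 10 in 1 library were compared by TPM ratio, with a threshold of 2-fold and no pseudocount. Intervals covered counting error only. Implied length was reads over FPKM and library total. Trends were medians in 20 bins, and the length trend alone used implied length. The median of all genes was added back after a trend was removed. The correction for GC content and length took both from GENCODE, available for 99.3% of genes past the filter. Alternatives used edgeR 4.0.16 (TMM) and DESeq2 1.42.0 (size factors). Scripts were tested on simulated data. Named genes were the 8 highest and 8 lowest ratios, those past 1.5-fold, the 5 highest and 5 lowest levels per subunit, names that depart from the subunit, shared reads, and the ends of each list. Gabpa and Nrf1, as factors of the ETS and NRF1 cores, were named besides. The members and lists were chosen with earlier results of these data known.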

Additional observations from a re-analysis of the deposited data

How the results depend on the processing

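The single gene past 2-fold lower, Mrps24, became 0 with the length trend removed, with GC content and length trends removed, at 3-fold and where the whole interval had to pass 2-fold, and it became 3 genes at 1.5-fold. Fewer genes can pass a stricter threshold by construction. Mrps24 stayed past 2-fold with TMM (-1.13), size factors (-1.11) and centring (-1.17). It also did as an FPKM ratio (-1.23) and as reads scaled to library totals (-1.22). The median of the 78 genes was -0.26 as an FPKM ratio and -0.26 as reads scaled to library totals, an alternative chosen after seeing the data, and 0.093 with the length trend and 0.067 with both trends removed. The Mrpl median was -0.26, -0.26, 0.093 and 0.11 under these, and the Mrps median -0.27, -0.27, 0.093 and 0.059, and centring on the median of all genes gave -0.20, -0.20 and -0.21 for the 78, the Mrpl and the Mrps genes. The median of all genes was 0.04 with TMM, 0.06 with size factors and -0.06 as an FPKM ratio, against 0.08 by TPM, and 11 of the 78 genes changed sign under these or centring. Filters left each ratio as it was by construction, and the pseudocounts were small beside member TPM values of 15.2 or more. Neither could move a named gene beyond its interval, so they were no check of these values. With TMM or size factors, 46 of the 48 named genes stayed within their interval. Other alternatives moved most of them outside it. Within their interval stayed 0 as an FPKM ratio, 0 as reads scaled to library totals and 21 with centring. An FPKM ratio and centring shift every gene by the same amount. Their counts therefore reflect that shift, and the order of the genes is unchanged by it. With the length trend removed 3 stayed, and with GC content and length trends removed 6. With subunits taken by symbol, the difference between their medians lay between -0.00013 and 0.05 throughout. It was larger by structure with GC content and length trends removed, at medians of 0.11 for large and 0.03 for small subunit genes. Counts of 0 genes past 2-fold higher held under every alternative at that fold. Whether the trends are technical was not tested. No paired analysis was possible because each group has 1 library. At 693 reads or more per gene, the widest counting interval spanned 0.27 on the log2 scale.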
